A study of Mus musculus with 70 samples.

Results

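The inflammatory CC chemokines examined here were Ccl2, Ccl7, Ccl8, Ccl12, Ccl3, Ccl4, Ccl6 and Ccl9, taken by gene symbol from the deposited count tables, so that 8 of the 55487 named genes were described. The members were chosen by name, with earlier results of these data known. RNA had been measured by QuantSeq, which reads the poly(A) end of each transcript, in 34 CD45+ and 36 CD45- libraries. The cells were flow-sorted from B16F10 tumors, a mouse melanoma line grown under the skin of both flanks of wild-type C57BL/6 mice of both sexes that were 6 to 8 weeks old at purchase. One tumor of each mouse received sham ablation (control) or partial ablation by histotripsy, a focused ultrasound method that destroys tissue mechanically, and tumors were taken 3 days (D3) or 7 days (D7) later. The ablated tumor is called histotripsy-treated and the untouched tumor on the other flank histotripsy-abscopal. The CD45+ libraries numbered 4 control, 6 treated and 7 abscopal on D3, and 10, 3 and 4 on D7. The CD45- libraries numbered 4, 7 and 7 on D3, and 11, 3 and 4 on D7. A treated tumor still held tissue that was not ablated, the labels do not tie a treated to an abscopal tumor of the same mouse or the CD45+ to the CD45- cells of the same tumor, and they do not state that each library came from a separate mouse, so the p-values measure the spread between these libraries and treat any linked libraries as independent.

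CC chemokines are small secreted proteins that draw leukocytes along a gradient by binding receptors coupled to G proteins. Ccl2, Ccl7, Ccl8 and Ccl12 are monocyte chemoattractant proteins, of which Ccl2 and Ccl7 act mainly through Ccr2. Ccl3 and Ccl4 are the macrophage inflammatory proteins 1 alpha and 1 beta, and Ccl3 binds Ccr1. Ccl6 and Ccl9 are rodent chemokines made by myeloid cells that also act through Ccr1. Macrophages, monocytes and neutrophils release many of these proteins in inflamed tissue, and fibroblasts can release monocyte chemoattractants.

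Sorting was first checked on Ptprc, the gene of CD45, which lay between 650.6 and 1252 counts per 1000000 counts of the library (CPM) in the CD45+ libraries and held at most 3 counts in any CD45- library. The libraries held 887798 to 3820705 counts. Melanoma markers such as Mlana and Pmel summed to 91.5 to 2310 CPM in the CD45+ libraries, with the highest value in a D3 abscopal library, and to 23826 to 37306 CPM in the CD45- libraries. Scaling by library totals in place of TMM moved the median difference of all genes by -0.22 on the log2 scale in D3 treated against control CD45+ cells, so the differences below are relative to the TMM scale.

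All 8 genes lie on chromosome 11 of GRCm38, in 2 groups 1456 kb apart. The monocyte chemoattractants Ccl2 (82035571 to 82037453), Ccl7 (82045712 to 82047525), Ccl12 (82101845 to 82103400) and Ccl8 (82115185 to 82116799) lie on the plus strand within 81.2 kb. Ccl9 (83572919 to 83578636), Ccl6 (83587882 to 83593087) and Ccl3 (83647844 to 83649355) lie on the minus strand and Ccl4 (83662584 to 83664683) on the plus strand, within 91.8 kb. These are protein-coding genes with 3 exons in the longest transcript, or 4 in Ccl6 and Ccl9. Ccl2 overlaps the antisense gene Gm17268 and Ccl6 overlaps E230016K23Rik, so their counts are uncertain where strand was not used in counting.

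RefSeq promoters of GRCm38.p6 were matched for 5 of the 8 members, Ccl3, Ccl6, Ccl8, Ccl9 and Ccl12, and Ccl2, Ccl4 and Ccl7 had no entry. Ccl3 was the member whose level differed most between treated and control immune cells. Ccl6 and Ccl9 were the members whose levels followed each other most closely in CD45+ cells. The 250 bases before the start are shown for Ccl3, Ccl6 and Ccl9. Each is written 5' to 3' on the gene's own strand, from chr11:83649379-83649628, chr11:83593088-83593337 and chr11:83578637-83578886. Capitals in Ccl3 mark a match to a C/EBP motif, and capitals in Ccl6 and Ccl9 mark runs of 8 or more bases that both promoters hold.
Ccl3: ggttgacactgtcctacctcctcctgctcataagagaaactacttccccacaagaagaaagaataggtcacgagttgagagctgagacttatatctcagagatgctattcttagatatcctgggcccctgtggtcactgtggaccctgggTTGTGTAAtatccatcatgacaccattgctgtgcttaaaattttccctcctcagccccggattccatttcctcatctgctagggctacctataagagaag
Ccl6: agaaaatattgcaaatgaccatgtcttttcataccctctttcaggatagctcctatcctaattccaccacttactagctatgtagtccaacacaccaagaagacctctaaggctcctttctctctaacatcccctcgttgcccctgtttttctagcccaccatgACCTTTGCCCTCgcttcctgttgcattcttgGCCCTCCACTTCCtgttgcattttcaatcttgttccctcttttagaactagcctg
Ccl9: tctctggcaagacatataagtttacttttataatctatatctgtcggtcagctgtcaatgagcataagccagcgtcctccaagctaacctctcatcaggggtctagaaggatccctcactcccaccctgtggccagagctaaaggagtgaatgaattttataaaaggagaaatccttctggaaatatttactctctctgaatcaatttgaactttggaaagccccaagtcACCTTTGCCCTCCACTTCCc
The Ccl3 match to TTNNGNAA begins 100 bases before the start, and 40.7% of 32851 promoter windows hold that pattern on either strand. The longest run shared by Ccl6 and Ccl9 was 13 bases, the largest value among the 10 pairs of the 5 members. Ccl9 held TGANTCA, the AP-1 pattern found in 7.81% of windows, and a match to NF-kB, found in 8.46%. Of the members shown, Ccl9 also held TATAAA, 92 bases before its start. Ccl12 and Ccl8 held TATAAA 31 and 32 bases before the start, a sense-strand position between 20 and 40 bases that 1.99% of windows share. Neither TTCNNNGAA, present in 8.30% of windows, nor the core of the interferon-stimulated response element, present in 3.44%, was in any of the 5. Motifs were searched on both strands of a 300-base window that adds 50 bases after the start.

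The question of which fraction carries these transcripts was answered by the levels in the sorted cells. All 8 members were higher in CD45+ than in CD45- cells. In the pooled CD45+ libraries Ccl6 reached 2430 CPM, Ccl4 1431, Ccl3 1301, Ccl9 368, Ccl2 289, Ccl7 125, Ccl12 38.7 and Ccl8 28.8. Because QuantSeq gives a read per transcript end, these levels do not grow with transcript length. By mean level Ccl6, Ccl4 and Ccl3 ranked 21, 55 and 60 among 33634 genes detected in CD45+ cells. Together the 8 genes took 0.322% to 1.19% of the counts of a CD45+ library, and at most 0.0186% of a CD45- library.

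**Figure D1:**
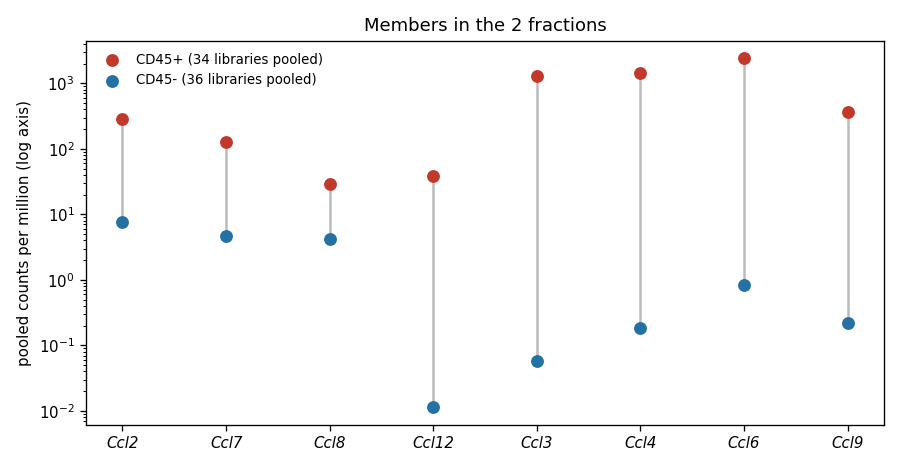
Pooled CPM of the 8 members on a log axis in 34 CD45+ libraries (red) and 36 CD45- libraries (blue), each joined by a grey line. With all groups pooled, Ccl2, Ccl7 and Ccl8 keep between 2.67% and 14.5% of their CD45+ level in CD45- cells, shares that differ by group, and the lines of the other 5 members are longer.

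The pooled CD45- counts divided the members. Ccl2 held 677 counts over the 36 CD45- libraries, Ccl7 402 and Ccl8 366, whereas Ccl6 held 73, Ccl9 19, Ccl4 16, Ccl3 5 and Ccl12 1. The CD45+ level of Ccl8 was 6.90 times its CD45- level (95% interval 6.16 to 7.74), that of Ccl7 27.3 times (24.7 to 30.2) and that of Ccl2 37.4 times (34.6 to 40.5). For Ccl3 the ratio was 22779 (9761 to 70157), for Ccl4 7830 (4821 to 13699) and for Ccl12, on a single CD45- count, 3385 (607 to 133760). These exact binomial intervals cover counting error only. Ptprc had a ratio of 11795 (5724 to 29339), so the intervals of Ccl3, Ccl4 and Ccl12 included the ratio of the sorting marker itself. The ratios of Ccl2, Ccl7 and Ccl8 pool groups that differed widely in CD45- cells. D3 treated tumors held 414 of the 677 CD45- counts of Ccl2 and 237 of the 366 of Ccl8. The pooled level of Ccl2 was 193 CPM in CD45+ and 24.1 CPM in CD45- cells of D3 treated tumors, but 331 and 0.839 CPM in those of D7 controls.

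Within each day and treatment, edgeR called all 8 members higher in CD45+ cells. On D3 this held against a background of 65.2% of 12392 genes called in control, 76.9% in treated and 75.2% in abscopal tumors, and on D7 of 80.4%, 65.6% and 69.5% of 12863 genes. With library totals the D3 treated calls were 3813 higher and 6091 lower genes, in place of 4948 and 4586. The smallest difference was that of Ccl8 in D3 treated tumors. Ccl8 lay between 11.4 and 66.2 CPM in the 6 CD45+ libraries, with a median of 26.7, and between 0 and 44.8 CPM in the 7 CD45- libraries, with a median of 3.63. The 2 fractions overlapped in that group, and the difference was 1.43 on the log2 scale (SE 0.61, adjusted p = 0.0335), which missed the threshold with DESeq2 (p = 0.121) and with library totals (p = 0.104).

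In CD45+ cells on D3 the comparison of histotripsy-treated with control tumors asks which members respond in the ablated tumor. Ccl3 rose 3.07-fold and was the only one of the 8 members called by edgeR, while 7.79% of the 10264 genes tested were called, 637 higher and 163 lower. With library totals these were 414 higher and 663 lower. The other 7 members had differences between -0.95 and 0.73, and the median of the 8 was 0.13 against -0.01 for all genes.

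Ccl3 measured 734, 647, 1249 and 1218 CPM in the 4 control libraries. It measured 1961, 2450.2, 3775, 2042, 1241 and 3095 CPM in the 6 treated libraries. Of these, 5 lay above every control library and replicate 5 lay just under the highest control. The difference was 1.62 on the log2 scale (SE 0.31, edgeR adjusted p = 0.00399), and it ranked 91 by p among all genes. In bulk libraries fewer cells of a type and less RNA per cell cannot be told apart. Leaving out each library in turn gave 1.35 to 1.77, with adjusted p between 0.000367 and 0.0199.

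**Figure D2:**
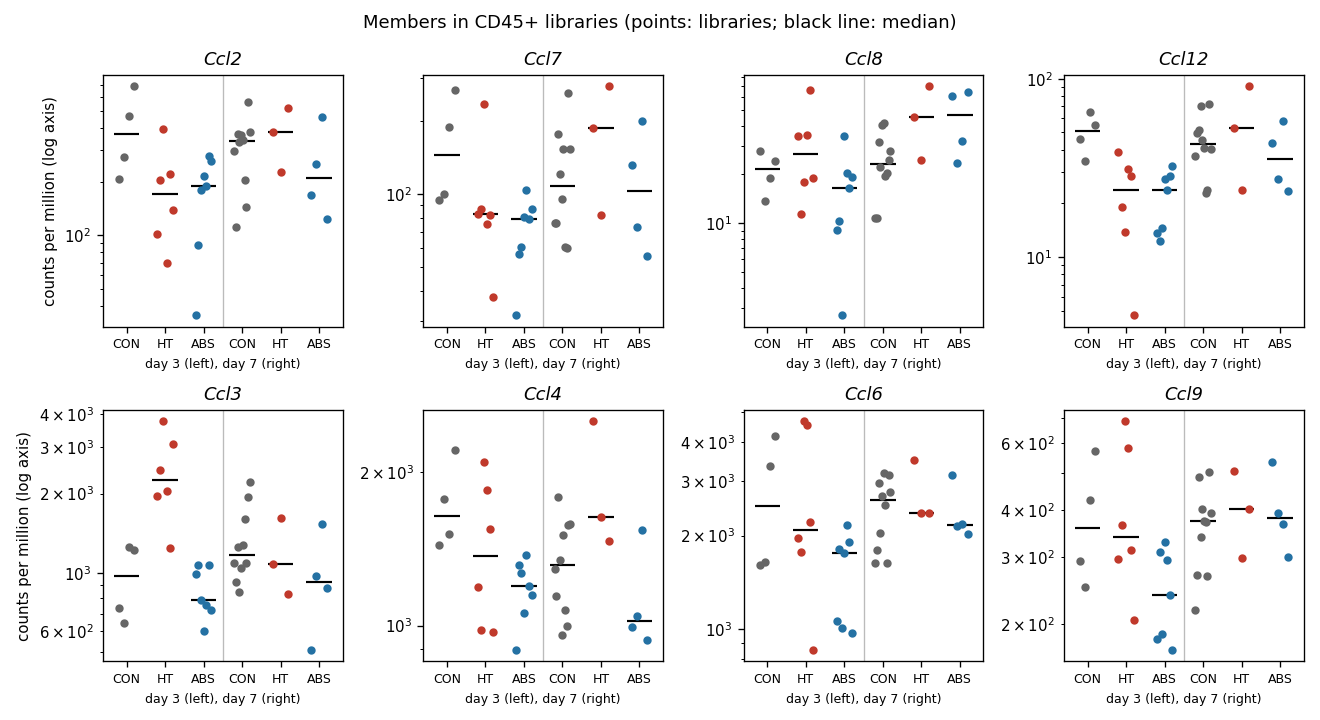
CPM of each member (log axes, with a range of their own in each panel) in the CD45+ libraries of control (CON, grey), histotripsy-treated (HT, red) and histotripsy-abscopal (ABS, blue) tumors on day 3 and day 7. Points are libraries and black lines medians. In the Ccl3 panel the D3 treated points lie between 1241 and 3775, and the 7 D3 abscopal points reach 1070.1 at most.

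Ccl4, which lies beside Ccl3 on the chromosome, did not pass the test. Its levels were 1439.8, 1770.3, 1511 and 2215 CPM in the controls and 971 to 2099 CPM, with a median of 1371, in the treated libraries. The 2 groups overlapped and the difference was -0.02 (SE 0.23, edgeR adjusted p = 0.98), with a sign that changed when single libraries were left out. The ratio of Ccl3 to Ccl4 counts within a library needs no scaling. It was 0.365 to 0.826 in the 4 controls and 0.801 to 3.19 in the 6 treated libraries, with medians of 0.53 and 1.72. In the abscopal libraries the ratio had a median of 0.629 and reached 1.11. On D7 the order of treated and control was the opposite, with medians of 0.5678 and 0.966.

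Among the monocyte chemoattractants, Ccl12 came nearest to the threshold in the direction opposite to Ccl3. Ccl12 measured 46.2, 34.7, 64.8 and 55.1 CPM in the controls, and 4.72 to 38.8 CPM with a median of 23.8 in the treated libraries, 5 of which lay under every control. The difference was -0.95 (SE 0.34, edgeR adjusted p = 0.0852), and adjusted p was 0.0403 with library totals and 0.0485 without treated replicate 1. Ccl2 had medians of 370.1 and 171 CPM and a difference of -0.83 (SE 0.48, adjusted p = 0.301). Ccl7 had medians of 144 and 82.5 CPM and a difference of -0.40 (SE 0.41, adjusted p = 0.588). Without treated replicate 3 these differences were -1.31 for Ccl2 and -1.002 for Ccl7, and without control replicate 4 they were -0.46 and -0.051. Ccl8 differed by 0.73 (SE 0.43, adjusted p = 0.311), with 3 of 6 treated libraries above every control. Thus no monocyte chemoattractant was called, and their differences had both signs.

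The rodent chemokines Ccl6 and Ccl9 were widely spread within each group. Ccl6 measured 1611, 1641, 3357 and 4194 CPM in the controls and 855 to 4684 CPM in the treated libraries, and Ccl9 249.7 to 573 and 205 to 685 CPM. Treated replicates 3 and 4 were highest for both genes. Their differences were 0.27 (SE 0.40) and 0.36 (SE 0.32), both far from the threshold, and that of Ccl6 was -0.01 with library totals and -0.07 without treated replicate 3. That of Ccl9 ranged from 0.049 to 0.61 with single libraries left out, and from 0.081 to 0.45 over the other alternatives.

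**Figure D3:**
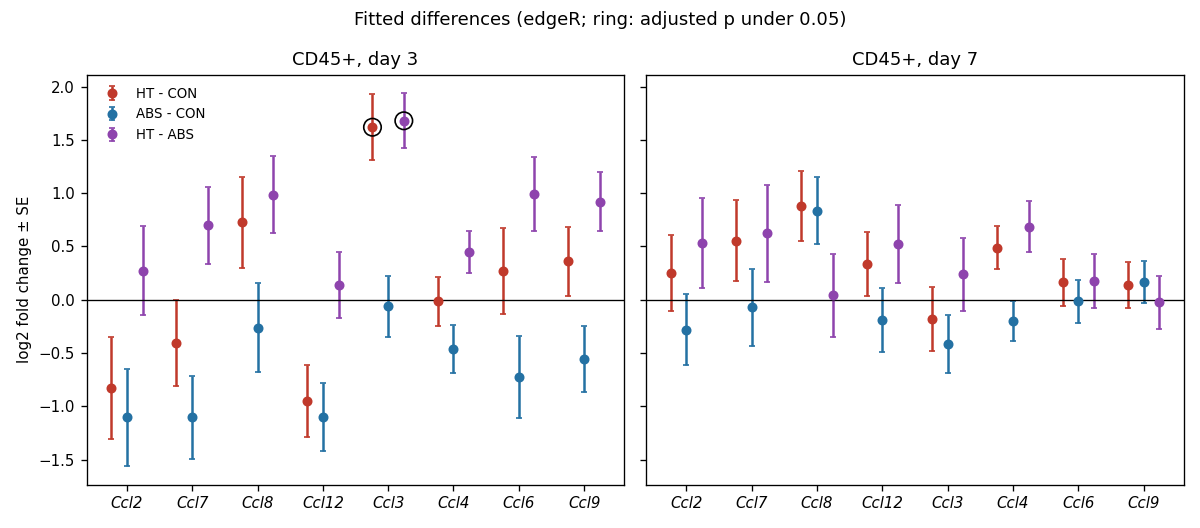
Log2 fold changes with standard errors (bars) of the 8 members in CD45+ cells on day 3 and day 7, for treated against control (red), abscopal against control (blue) and treated against abscopal (purple). Rings mark the called differences, which are those of Ccl3 on day 3 at 1.62 and 1.68.

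The abscopal tumors addressed the response at a distance. On D3 all 8 members were lower in abscopal than in control CD45+ cells by fitted value, with a median of -0.64 against 0.01 for all genes, yet none was called. The background was 0% of 10264 genes called by edgeR, with 796 genes at an unadjusted p under 0.05, 5 genes called by DESeq2 and 0 by limma-voom. The 7 abscopal libraries lay between 12.4 and 32.5 CPM for Ccl12, all under the lowest control at 34.7, and the difference was -1.10 (SE 0.32, adjusted p = 0.50). For Ccl4 they lay between 895 and 1375 CPM, under the lowest control at 1439.8, with a difference of -0.46 (SE 0.22, adjusted p = 0.641). These 2 members were the ones whose groups did not overlap, against 1.70% of all genes. Ccl2 and Ccl7 each differed by -1.10 (SE 0.46 and 0.39, adjusted p = 0.579 and 0.559). Melanoma markers summed to 91.5 to 2310 CPM in the abscopal libraries and to 103 to 266 CPM in the controls, and their part in these differences was not tested.

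Treated and abscopal tumors were then compared directly on D3. Ccl3 rose in treated against abscopal tumors, 3.20-fold, and again was the only member called, against a background of 5.44% of genes, 500 higher and 58 lower (346 and 89 with library totals). The 7 abscopal libraries lay between 603 and 1070.1 CPM with a median of 792. All 6 treated libraries lay above them, so the groups did not overlap, which held for 1.34% of all genes. The difference was 1.68 (SE 0.26, edgeR adjusted p = 0.000862), it ranked 19 by p, and it was 1.41 to 1.83 with each library left out. All 8 members had positive differences with a median of 0.81. Ccl9 had 0.92 (SE 0.28, adjusted p = 0.0561), Ccl6 0.99 (SE 0.35, p = 0.108), Ccl8 0.99 (SE 0.36, p = 0.128) and Ccl4 0.45 (SE 0.20, p = 0.223). Ccl9 passed the threshold with DESeq2 (p = 0.0246) and when treated replicate 1, 5 or 6 was left out. Ccl6 and Ccl8 each passed with 1 single library left out (edgeR adjusted p = 0.0413 and 0.0415).

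Markers of other leukocytes moved with Ccl3 on D3. The 10 neutrophil markers, such as S100a8, S100a9 and Csf3r, summed to 354 to 2710 CPM in control, 1333 to 26895 CPM in treated and 791 to 2811 CPM in abscopal CD45+ libraries. Of the 7 that were tested, 5 were called higher in treated than in control tumors, where 7.79% of all 10264 genes were called. The 8 T cell markers were lower, 429 to 1768 CPM in treated against 1948 to 2456 CPM in control libraries, with 3 called. The 14 macrophage markers summed to 2845 to 5058 CPM in treated libraries, on both sides of the 4125 to 4245 CPM of the controls, and 0 were called by edgeR. Over the 34 CD45+ libraries with group means removed, log2 CPM of Ccl3 had a Pearson correlation of 0.69 with the neutrophil list, of -0.03 with the macrophage list, of -0.67 with the NK cell list and of -0.50 with the T cell list. Without the 2 libraries farthest from the median the neutrophil value was 0.56. Without treated replicate 3, which had the highest neutrophil sum, the treated-to-control difference of Ccl3 was 1.35 (edgeR adjusted p = 0.00560). Treated replicates 2, 4 and 6, with neutrophil sums of 7900, 4234 and 4504 CPM, were also above the sum of every control library. The part of neutrophil content in the difference was not tested.

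**Figure D4:**
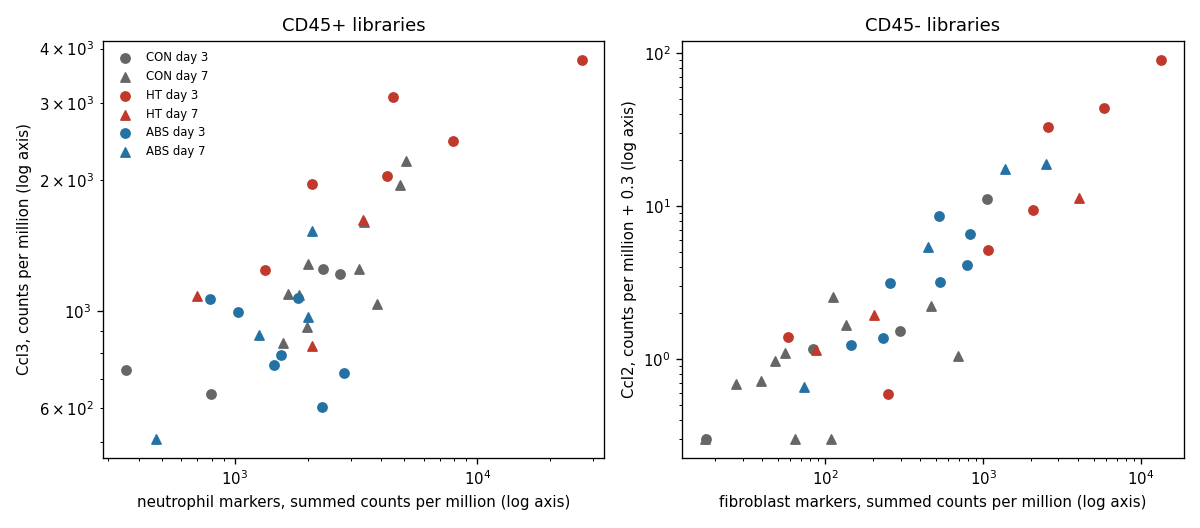
Left, Ccl3 against the summed neutrophil markers in the 34 CD45+ libraries. Right, Ccl2 (plus 0.3) against the summed fibroblast markers in the 36 CD45- libraries. All axes are log-scaled CPM, colours mark treatments, and circles and triangles mark days 3 and 7. The highest point on both sides is a D3 treated library, with neutrophil markers at 26895 on the left and fibroblast markers at 13379 on the right.

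By D7 no member was called in any of the 3 comparisons of CD45+ cells. The background was 0% of 10817 genes in each, with 341, 806 and 291 genes at an unadjusted p under 0.05 for treated against control, abscopal against control and treated against abscopal, and DESeq2 called 0 genes in each. Ccl8 had the largest differences from control in both groups. It measured 10.8 to 41.7 CPM in the 10 controls, 44.9, 24.7 and 69.8 CPM in the treated and 61.1, 23.4, 32.3 and 64.7 CPM in the abscopal libraries. In each group 2 libraries lay above every control, and the differences were 0.88 (SE 0.33) and 0.83 (SE 0.31). With single libraries left out they ranged from 0.49 to 1.11 and from 0.63 to 1.03. Ccl4 measured 1463 to 2522 CPM in treated and 938 to 1540.0 CPM in abscopal libraries, a difference of 0.69 (SE 0.24) that ranked 30 by p but was not called. Ccl3 measured 1083, 1621 and 831 CPM in treated libraries, within the range of the 10 controls except for the lowest, and its difference from control was -0.18 (SE 0.30).

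Day 7 was set against day 3 in a joint fit of the 34 CD45+ libraries, where day also stands for the age of the tumor. In treated tumors Ccl3 fell by 1.27 on the log2 scale (SE 0.36, adjusted p = 0.0387), against a background of 4.14% of 11251 genes called, 91 higher and 375 lower (282 and 224 with library totals). In control tumors the same difference was 0.50 (SE 0.29, adjusted p = 0.957) and in abscopal tumors 0.16 (SE 0.30, adjusted p = 0.88), where 0.00889% and 0.747% of genes were called. The treated-to-control difference of Ccl3 itself changed between the days by -1.77 (SE 0.47, adjusted p = 0.0306), and 2.68% of genes were called in that test, 29 higher and 272 lower (75 and 161 with library totals). The summed neutrophil markers had medians of 4369 CPM on D3 and 2085 CPM on D7 in treated tumors, and of 1552 and 2623 CPM in controls, and their part in these changes was not tested. Both calls on Ccl3 depended on single libraries. The fall was no longer called without D7 treated replicate 1 or 3 or D3 treated replicate 2, 3 or 6, with adjusted p up to 0.227. It was not called with library totals or in a fit of only those groups (p = 0.167). The change between days was no longer called without D3 control replicate 1 or 2, D7 treated replicate 1 or 3 or D3 treated replicate 3 or 6, with adjusted p up to 0.141, nor in a fit of only those groups (p = 0.0509).

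No other member was called between the days. Ccl12 in treated tumors had a difference of 1.19 (SE 0.37, edgeR adjusted p = 0.0578), from a median of 23.8 CPM on D3 to 52.9, 23.7 and 90.8 CPM on D7. Ccl8 in abscopal tumors had a difference of 1.44 (SE 0.39, adjusted p = 0.0668), from 2.72 to 34.3 CPM on D3 to 23.4 to 64.7 CPM on D7. Neither passed the threshold, although Ccl12 did with library totals (p = 0.0386) and Ccl8 with DESeq2 (p = 0.0386). Ccl12 also passed in 3 of 9 fits with a library left out, over which its difference ranged from 0.68 to 1.48. Ordered by median, Ccl3 stood at 2246 CPM in D3 treated, 1171 in D7 control, 1083 in D7 treated, 976 in D3 control, 925 in D7 abscopal and 792 in D3 abscopal CD45+ cells. The libraries of neighbouring groups in this order overlapped in every case.

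In CD45- cells only Ccl2, Ccl7 and Ccl8 held enough counts to be tested, and the other 5 members had 0 to 9 counts in a library. On D3 none of the 3 was called between treated and control tumors, where 0.0916% of 10921 genes were called by edgeR. DESeq2 and limma-voom called 0 of the 3. Ccl2 measured 1.23, 10.8, 0.862 and 0 CPM in the control libraries and 0.286 to 90.3 CPM, with a median of 9.12, in the 7 treated libraries. Treated replicates 1, 3 and 6, at 43.5, 90.3 and 32.7 CPM, lay above every control. Ccl7 and Ccl8 were highest in replicates 1 and 3 as well, at 28.2 and 48.3 CPM for Ccl7 and 44.0 and 44.8 CPM for Ccl8. The differences were 3.003 (SE 1.09), 2.64 (SE 1.12) and 2.94 (SE 1.19) for Ccl2, Ccl7 and Ccl8, with edgeR adjusted p of 0.318, 0.396 and 0.365. Control replicate 2 held the highest control level of all 3, and without it the differences were 5.28, 4.41 and 6.18, still not called. Against abscopal tumors they were 2.65, 2.33 and 2.88, and none was called, against 0.147% of genes. With limma-voom these last differences were 0.76, 0.52 and 1.04.

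**Figure D5:**
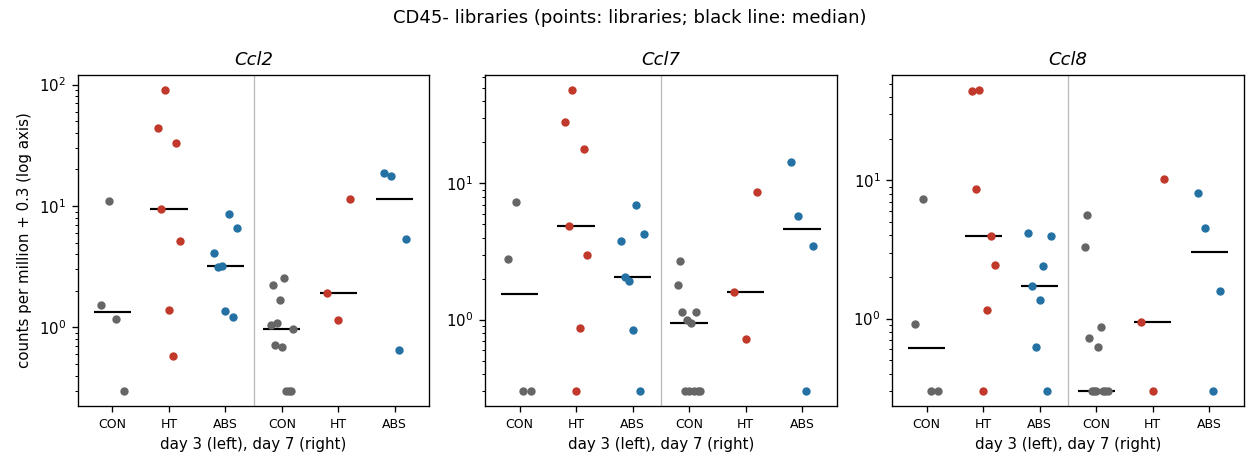
CPM of Ccl2, Ccl7 and Ccl8, with 0.3 added so that libraries at 0 can be drawn on the log axis, in CD45- libraries by group and day (grey CON, red HT, blue ABS). Points are libraries and black lines medians. The 7 D3 treated points spread from 0.286 to 90.3 for Ccl2 before that addition.

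On D7 Ccl2 was called higher in abscopal than in control CD45- cells, 1 of the 3 members tested, against a background of 0.291% of 10996 genes. It measured 18.5, 17.2, 0.356 and 5.08 CPM in the 4 abscopal libraries and 0 to 2.23 CPM, with a median of 0.676, in the 11 controls. In 3 of the 4 abscopal libraries it lay above every control. The controls held 0 to 7 counts of Ccl2, under the minimum count of 10, so it entered the test only through abscopal and treated libraries. Its call and its share of the 3 members are therefore not independent of that filter. The difference was 3.57 (SE 0.66, edgeR adjusted p = 0.0282). Ccl2 was not called with DESeq2 (p = 0.0645), limma-voom (p = 0.323) or the replicate number as a block (p = 0.582). The call was also lost without abscopal replicate 1 or 2 or control replicate 3, 4, 6, 8, 9, 10 or 11. There p went up to 0.544. In a fit of only those groups Ccl2 did not pass the filter on low counts. Ccl7 had a difference of 3.22 (SE 0.77, adjusted p = 0.0685) and Ccl8 of 2.20 (SE 0.97, adjusted p = 0.464). In the treated tumors of D7, where 0% of genes were called and 669 had an unadjusted p under 0.05, Ccl2, Ccl7 and Ccl8 were highest in replicate 3 at 11.04, 8.41 and 9.99 CPM. Between the days 0 of the 3 were called by edgeR in CD45- cells, and DESeq2 called none of them either. Against this stood backgrounds of 0% in control, 0.0433% in treated and 0.026% in abscopal tumors, and 0% and 0.00866% for the change of the treated and abscopal differences. Ccl2 differed between D7 and D3 by -1.90 in control, -2.65 in treated and 1.32 in abscopal tumors.

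Fibroblast markers moved with these 3 members. The 8 markers, among them Col1a1, Col3a1 and Pdgfra, summed to 5821, 13379 and 2594 CPM in D3 treated replicates 1, 3 and 6 and to 17.5 to 1052 CPM in the D3 controls. In D7 abscopal replicates 1 and 2 they summed to 2506 and 1379 CPM, and in D7 controls to 17.3 to 698 CPM. Over the 36 CD45- libraries with group means removed, the correlation of log2 CPM with the fibroblast list was 0.86 for Ccl2, 0.90 for Ccl7 and 0.90 for Ccl8. In the same order it was 0.60, 0.61 and 0.58 with endothelial markers and 0.62, 0.55 and 0.51 with neutrophil markers. With melanoma markers it was -0.40, -0.35 and -0.36. Among themselves Ccl2, Ccl7 and Ccl8 correlated at 0.93 (Ccl2 and Ccl7), 0.84 (Ccl2 and Ccl8) and 0.90 (Ccl7 and Ccl8). Of the 7 fibroblast markers tested, edgeR called 0 in D3 treated and 1 in D7 abscopal against control cells, with medians of 3.30 and 2.70 on the log2 scale. Of all genes, 0.0916% and 0.291% were called in these comparisons. Macrophage markers summed to at most 14.2 CPM and neutrophil markers to at most 6.43 CPM in any CD45- library. Endothelial markers summed to 126 CPM in D7 abscopal replicate 1 and to 10.6 to 36.8 CPM in the D7 controls. The part of fibroblast or endothelial content in the Ccl2 difference was not tested.

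The treated-to-control differences of Ccl2, Ccl7 and Ccl8 pointed lower in CD45+ than in CD45- cells on D3 by -3.79 (SE 1.20), -3.01 (SE 1.17) and -2.17 (SE 1.26). In this test of the difference between fractions none was called (edgeR adjusted p = 0.0898, 0.184 and 0.402), against 1.92% of genes, 176 higher and 62 lower (75 and 166 with library totals). For abscopal against control on D7 the values were -3.87 (SE 0.81, adjusted p = 0.0503) for Ccl2, -3.34 (SE 0.97, p = 0.158) for Ccl7 and -1.45 (SE 0.95, p = 0.675) for Ccl8, where 0.0233% of genes were called. The value of Ccl2 passed the threshold with DESeq2 (p = 0.0141), with library totals (p = 0.0346) and when CD45+ abscopal replicate 3 or CD45- abscopal replicate 3 or 4 was left out.

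How the members varied together in CD45+ cells was described over 34 libraries with group means removed. Ccl6 and Ccl9 had a Pearson correlation of 0.93 and Ccl2 and Ccl7 of 0.79, whereas the neighbours Ccl3 and Ccl4 had 0.40. Ccl7 also correlated with Ccl9 (0.71), Ccl4 (0.68) and Ccl6 (0.66), and Ccl4 with Ccl6 (0.68). Ccl8 and Ccl3 had a negative value of -0.29. Because these libraries share cell makeup as well as depth, the values describe the libraries and not control of the genes.

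Among 8227 genes with a mean of at least 10 CPM, those most like Ccl3 were Nfkbiz (0.92), Hcar2 (0.92) and Plek (0.90). Nfkbiz encodes a nuclear inhibitor of the NF-kB family and Hcar2 a receptor of hydroxy-carboxylic acids. Ccl8 was most like C1qa (0.72), C1qc (0.69) and H3c4 (0.67), the first 2 of which encode complement chains made by macrophages. For Ccl9 they were Ctsb (0.87), Dab2 (0.87) and Wfdc17 (0.86), and for Ccl6 Snx6 (0.85), Msr1 (0.83) and Capg (0.83). Ccl2 was most like Klhl9 (0.91), Anxa1 (0.90) and Cstb (0.90), and Ccl7 most like Sdcbp (0.90), Slc7a8 (0.85) and Rab1a (0.84). For Ccl4 the genes were Clec4n (0.77), Pmp22 (0.75) and Spp1 (0.74), and for Ccl12 Snx5 (0.75), Tbxas1 (0.74) and Cnpy4 (0.72).

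The receptors of the family were read in the same cells. Of 14 listed receptors 8 could be tested in CD45+ cells and 0 in CD45- cells. In D3 treated against control tumors 3 were called higher and 1 lower, with a median of -0.09. Of all 10264 genes tested there, 7.79% were called, 637 higher and 163 lower. Ccr1, the receptor shared by Ccl3, Ccl6 and Ccl9, rose by 1.48 (SE 0.35, edgeR adjusted p = 0.0139), from 81.6 to 145 CPM in controls to 114 to 429 CPM in treated libraries. Ccrl2, an atypical receptor that binds chemerin, rose by 1.47 (SE 0.28, adjusted p = 0.00399). The third called higher was Ccr3, a receptor of eosinophils, named here after its value was seen. Ccr9, the receptor of Ccl25, fell by 1.26 (SE 0.30, adjusted p = 0.0137). Ccr2, through which Ccl2 and Ccl7 act, rose in treated tumors from D3 to D7 by 0.81 (SE 0.22, adjusted p = 0.0275). There 4.14% of all genes were called, and so were Ccrl2 at -1.16 and Ccr9 at 1.16. In abscopal tumors Ccr2 differed between the days by 0.64 (SE 0.19, edgeR adjusted p = 0.105), which was not called. Against abscopal tumors on D3 Ccr1 and Ccrl2 were again called higher, by 1.45 (SE 0.29) and 1.37 (SE 0.23), and no receptor lower. In that comparison 5.44% of all genes were called, 500 higher and 58 lower.

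The remaining CC chemokines and the signaling genes were read as well. Of 13 other CC chemokines 6 were tested on D3 and 0 were called by edgeR in treated against control tumors, where 7.79% of all genes were called. Among them Ccl25 differed by 1.09 (adjusted p = 0.0877) and Ccl5 by -0.43 (adjusted p = 0.187). Of 24 genes of chemokine receptor signaling, all tested, 0 were called in that comparison. Arrb1, which encodes a beta-arrestin, was called higher in treated than in abscopal tumors by 0.56 (SE 0.14, edgeR adjusted p = 0.0208). Pik3cd, a catalytic subunit of phosphoinositide 3-kinase, was higher on D7 than on D3 in treated tumors by 0.63 (SE 0.15, adjusted p = 0.0155), the interval in which Ccl3 was lower.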

How the data were processed

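The deposited files were 4 tables of raw counts per gene, a table for each fraction and day, with 17 CD45+ or 18 CD45- libraries each and 0 columns without a sample. The authors made these counts from single-end QuantSeq reads, collapsed by unique molecular identifier and counted with featureCounts on GRCm38. The submitters' processing notes name Trim Galore 0.5.0 and STAR 2.6.0, and the strand setting is not given in the sources used here. A line without a gene name in both CD45+ tables held 100% of the column totals and was left out. Library totals ranged from 887798 to 3820705 counts, which limits precision for genes with few counts.

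Groups were taken from the labels. Comparisons were made with edgeR 4.0.16 (R 4.3.3) by its quasi-likelihood test on TMM-scaled counts, after filterByExpr with a minimum count of 10, in fits of 3 groups per table, or of 6 groups for the 2 days of a fraction and the 2 fractions of a day. Calls used a Benjamini-Hochberg adjusted p threshold of 0.05 over all genes tested, and the standard error (SE) is the log2 fold change divided by the square root of F. The scripts were tested on simulated data. Alternatives were DESeq2 1.42.0, limma-voom 3.58.1, library totals, no filter, the replicate number as a block, a fit of only the groups compared, and leaving out libraries in turn: every library in the fits per table, and in the fits across days and fractions those of groups of at most 5. Leaving out D3 treated libraries in the latter was added after seeing the data.

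The members and gene lists were chosen with earlier results of these data known. All 8 members are named, and genes of each other list come from the 3 with the smallest p in a comparison, apart from Ccr3. Likeness is the Pearson correlation of log2 CPM (prior count 2) with group means removed. By correlations over 0.1, same-numbered libraries deviated together in every pair for only 1 of 18 pairs of groups. These were CD45+ and CD45- D7 abscopal cells, with 4 pairs at 0.105 to 0.299. In CD45+ and CD45- D3 abscopal cells 5 of 7 pairs were over 0.1 (0.024 to 0.388). This check cannot show that the other same-numbered libraries are unlinked.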

Additional observations from a re-analysis of the deposited data

Results flagged for a closer look

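In 56 combinations of a member and a group of 4 to 10 libraries, 5 held a library that stood apart from the others of its group by Dixon's criterion, where chance gives about 1 in 20. Ccl2 at 10.8 CPM and Ccl8 at 7.04 CPM were both highest in CD45- D3 control replicate 2. Ccl7 reached 236 CPM in CD45+ D3 treated replicate 3. Ccl6 reached 3134 CPM in CD45+ D7 abscopal replicate 1. Ccl9 reached 1.60 CPM in CD45- D3 treated replicate 3, a library with 4 counts of that gene. The treated-to-control difference of Ccl3 in CD45+ cells changed between D3 and D7 by -1.77 on the log2 scale in a test of that change.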

How the results depend on the processing

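Ccl3 in D3 treated CD45+ cells kept its call against control and against abscopal tumors under every alternative run. Over the 6 alternatives, 348 values of single members kept their direction and side of the threshold, 32 passed it newly, 10 no longer passed it and 3 changed sign, and 164 counts of called members stayed while 28 moved. The causes were not tested unless given.

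Without the filter on low counts, edgeR replaced the spread of single genes by a common trend (median prior degrees of freedom of 62.1 or more, or infinite, against 6.32 to 8.94 with the filter). It then called 3 members in D3 treated against control, 4 in abscopal against control and 5 in treated against abscopal CD45+ cells, and 1 in each D7 comparison with control. It called 3 in each of D3 treated against control, D3 treated against abscopal and D7 abscopal against control CD45- cells. Between days it called 4 in treated and 4 in abscopal CD45+ cells, 4 in the treated and 1 in the abscopal change of difference, and between fractions 2 on D3 and 3 on D7. All-gene calls rose from 800 to 1244, from 558 to 1022 and from 0 to 153 in the D3 CD45+ comparisons, and from 10 to 312, 16 to 451 and 32 to 398 in those CD45- comparisons.

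With DESeq2, 2 members were called in D3 treated against abscopal CD45+ cells, 1 between days in abscopal cells, 0 in D7 abscopal CD45- cells and 2 in the D7 abscopal test between fractions. DESeq2 called 46, 138 and 11 of all genes in those CD45- comparisons. With library totals, 2 were called in D3 treated against control CD45+ cells and 1 in the D7 abscopal test between fractions, and Ccl6 reversed to -0.015. Limma-voom called 0 members in D7 abscopal CD45- cells. In fits of only the groups compared 0 were called there, 0 in treated cells between days, where 10 of all genes were called in place of 466, 0 in the treated change of difference and 1 in the D7 abscopal test between fractions.

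With the replicate block, 0 members were called in D7 abscopal CD45- cells (Ccl2 p = 0.582) and 0 in the treated change of difference (Ccl3 p = 0.0906), and 1 in abscopal cells between days (Ccl8 at 1.71, p = 0.0233). Ccl3 reversed to 0.092 in D3 abscopal and to 0.18 in D7 treated against control cells. The block changed the count of called members in no other comparison. Whether same-numbered libraries outside the D7 abscopal fractions are linked was not settled.

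In the fits across days and fractions only libraries of groups of at most 5 and of the D3 treated groups were left out. Leaving out libraries in turn gave 1 to 2 called members in D3 treated against control and 1 to 3 in treated against abscopal CD45+ cells, 0 to 2 in D7 abscopal CD45- cells, 0 to 2 in treated cells between days and 0 to 1 in the treated change of difference. Between fractions it gave 7 to 8 in D3 treated cells, 0 to 1 in the D3 treated test, where Ccl2 passed without CD45- replicate 5 (p = 0.0451), and 0 to 2 in the D7 abscopal test. The call of Ccl8 between D3 treated fractions was lost without CD45+ replicate 4 or 5 or CD45- replicate 2, 4, 5, 6 or 7. Without 1 library Ccl4 ranged from -0.25 to 0.12 and Ccl6 from -0.072 to 0.56 in D3 treated against control cells. Ccl3 ranged from -0.21 to 0.074 in D3 abscopal and -0.51 to 0.037 in D7 treated against control cells, and from -0.14 to 0.38 in abscopal cells between days. Ccl8 ranged from -0.83 to 3.22 in D7 treated against control CD45- cells.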
